A study of Mus musculus with 11 samples.

Results

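The genes described here are 10 genes whose proteins build or fill the acrosome: Acr, Acrv1, Acrbp, Spaca1, Spaca3, Spaca7, Zpbp, Zpbp2, Izumo1 and Dpy19l2. They were taken by symbol from a table of raw RNA-Seq read counts that lists 23074 genes, and the table holds 10 of 10. The libraries came from whole decapsulated testes of male mice at postnatal day 21 (P21), with 1 library per mouse. The 5 wild type mice (replicates 1 to 5) and the 6 Rfx2-/- mice (replicates 6 to 11) shared a mixed C57BL/6, 129/Sv and FVB/N background. The Rfx2-/- mice lacked exon 7 of Rfx2, the gene of the transcription factor RFX2, in every tissue, because the deletion had been made in the germline with a universally active Cre. The comparison asked how the loss of RFX2 affected the mRNA of each gene, at an age when the first wave of germ cells has only just become round spermatids. In a whole testis, fewer cells of a type and less RNA per cell cannot be told apart.

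The acrosome is a flattened, enzyme-filled vesicle that caps the nucleus of the sperm head. It grows from vesicles of the Golgi apparatus that fuse beside the nucleus of the round spermatid, and it is tied to the nuclear envelope by a plate of actin and keratin. At fertilization its contents are released by exocytosis at the surface of the egg, and membrane proteins exposed by that event bind and fuse with the oocyte. Transcription of many acrosomal genes begins in spermatocytes or early round spermatids, well before the mature organelle exists.

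The levels below are in CPM, the counts of a gene per 1000000 counts of a library size scaled by the TMM method of edgeR. The total counts ran from 26925157 to 29769483 in wild type mice and from 22232097 to 27116903 in Rfx2-/- mice (two-sided exact permutation test over mice, p = 0.0130), so that 3 counts equalled 0.0852 to 0.139 CPM. Rfx2 itself was counted over the whole gene, which does not show the missing exon. Its level was 326 ± 118 CPM (SD, n = 5) in wild type mice against 304 ± 14.6 CPM (n = 6) in Rfx2-/- mice. Wild type replicates 1, 2 and 4 (472, 380 and 368 CPM) were above every Rfx2-/- mouse (282 to 324 CPM). Wild type replicates 3 and 5 (218 and 191 CPM) were below every Rfx2-/- mouse. The germ cell markers differed widely between mice of the same genotype. The mean log2 CPM of 12 pachytene spermatocyte markers, called the pachytene score here, was 8.31 and 8.20 in wild type replicates 3 and 5, 9.04 to 9.17 in the remaining wild type mice and 9.13 to 9.33 in Rfx2-/- mice (two-sided exact permutation test, p = 0.00649, 0.0519 after Benjamini-Hochberg adjustment over 8 marker lists). The score of 12 round spermatid markers ran from -0.59 to 5.16 in wild type and from 1.80 to 5.54 in Rfx2-/- mice (p = 0.240, exact permutation test), and that of 10 late spermatid markers from -1.65 to 5.70 and from 0.45 to 5.80 (p = 0.431, exact permutation test). All 12 pachytene markers were tested, and their summed level was 5696 to 11712 CPM in wild type and 10644 to 13289 CPM in Rfx2-/- mice. Sertoli cell markers went the other way, from 6.16 to 6.81 in wild type and from 6.02 to 6.30 in Rfx2-/- mice (exact permutation test, p = 0.0238, adjusted 0.0635). The raw p of the same exact permutation test was 0.0238 for spermatogonium, 0.0563 for macrophage, 0.134 for Leydig cell and 0.846 for peritubular cell markers.

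A RefSeq promoter sequence (GRCm38.p6), covering 250 bases before and 50 bases after a transcription start, was matched to 9 of the 10 genes, and Acr was the gene with no entry. RFX proteins bind the X-box, a palindrome with the letters GTNNCCNNGGNNAC. Both strands of the 11 matched promoters held it 0 times, while 1.88% of all 32851 RefSeq promoters of this length did. When 1 of its 8 fixed letters was allowed to differ, a search added after the sequence of Dpy19l2 had been seen, 15.4% of all promoters had a match and the only matched promoter with one was that of Dpy19l2. The half-site GTTGCC was found in 12.5% of all promoters and, of the genes described, only upstream of Acrbp. The cAMP response element TGACGTCA, a site for CREB and CREM factors, was found in 1.79% of all promoters and only in that of Izumo1, from base -96 to base -89. The promoters of Dpy19l2 and Izumo1 are printed because these genes show the contrast among the 10: Dpy19l2 varied 3.47-fold between wild type mice and kept a proportion of its own in each genotype, and Izumo1 varied 37.6-fold between wild type mice. Capitals mark the X-box with 1 changed letter in Dpy19l2 (chr9:24696244-24696543, minus strand), which starts 3 bases after the transcription start, and the cAMP response element in Izumo1 (chr7:45621561-45621860, plus strand).
Dpy19l2: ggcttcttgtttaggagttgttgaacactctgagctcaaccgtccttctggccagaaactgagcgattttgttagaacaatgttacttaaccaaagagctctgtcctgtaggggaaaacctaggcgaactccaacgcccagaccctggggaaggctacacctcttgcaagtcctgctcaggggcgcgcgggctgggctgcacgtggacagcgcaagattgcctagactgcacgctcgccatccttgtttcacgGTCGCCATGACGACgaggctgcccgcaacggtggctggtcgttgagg
Izumo1: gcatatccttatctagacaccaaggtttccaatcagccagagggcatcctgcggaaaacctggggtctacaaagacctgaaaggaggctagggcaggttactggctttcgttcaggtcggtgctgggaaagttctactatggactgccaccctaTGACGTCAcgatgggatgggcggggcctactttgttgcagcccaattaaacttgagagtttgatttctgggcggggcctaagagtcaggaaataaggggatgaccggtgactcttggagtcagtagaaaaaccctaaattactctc
These matches are descriptions of letters in a window, and binding was not measured in the counts used here.

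Of the 10 acrosome genes, 0 were lower and 0 were higher in Rfx2-/- mice at an adjusted p of at most 0.01 in the quasi-likelihood test of edgeR, where 1.94% of the 15745 genes tested were lower and 0.730% were higher. The Wald test of DESeq2 and voom of limma also called 0 of the 10, where they called 12.9% and 6.66% of all genes in either direction. For Acr, Acrbp, Zpbp and Zpbp2 the adjusted p was 0.0237, 0.029, 0.0392 and 0.0232 by the Wald test of DESeq2. By voom it was 0.0438, 0.0515, 0.0859 and 0.0401. The remaining genes were above 0.05 in both tests, and the share of all genes under 0.05 in them is not given. At an unadjusted p under 0.05 in edgeR, 4 were higher (Acr, Acrbp, Zpbp and Zpbp2), beside 18.1% of all genes tested, and 0 were lower, beside 23.7% of all genes tested. The fitted log2 fold change was above 0 for 9 genes and below 0 for Dpy19l2, with a median of 0.935 over the 10 genes and of -0.05 over all genes tested. With total counts as library sizes the median of all genes moved to -0.22, and the sign of each of the 10 genes stayed as it was. The genotypes overlapped in all 10 genes, while 5.20% of all genes tested were lower and 6.50% higher in every Rfx2-/- mouse than in every wild type mouse.

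**Figure D1:**
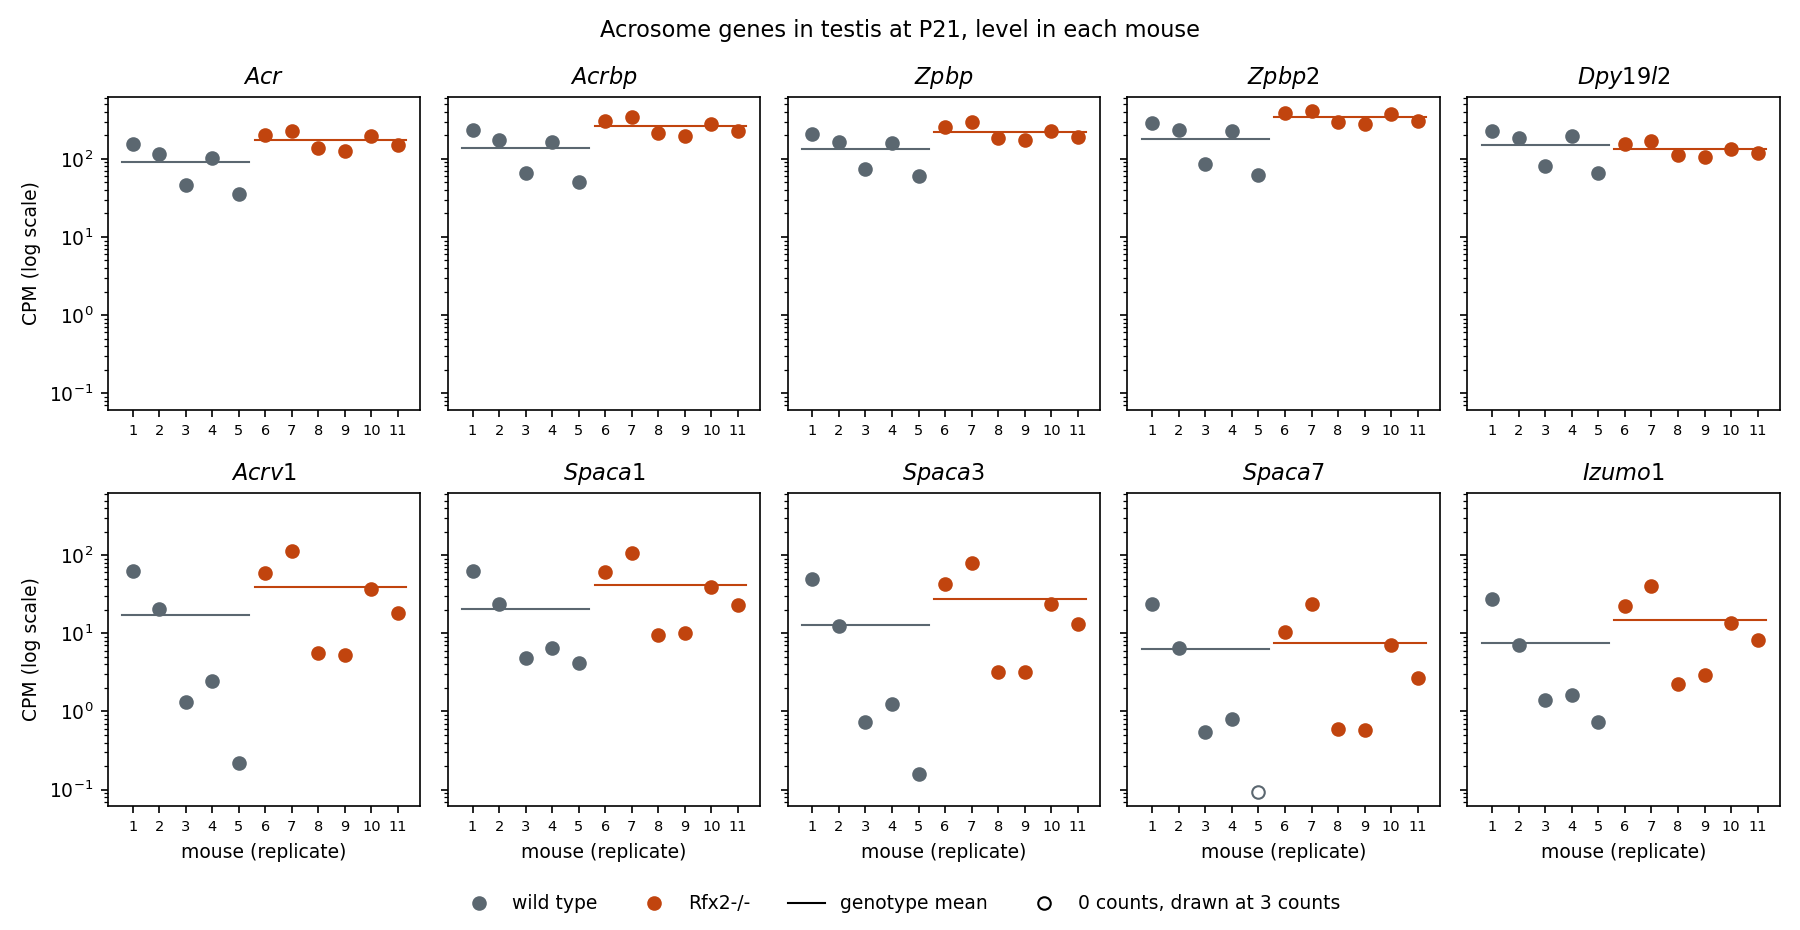
Level of each acrosome gene in each mouse, in CPM on a log axis shared by all panels, with wild type replicates 1 to 5 in grey, Rfx2-/- replicates 6 to 11 in orange and a line at the mean of each genotype. The 5 genes of the upper row vary by less than 5-fold between mice of a genotype, those of the lower row vary by more than 10-fold, and the single open point is a count of 0 drawn at the level of 3 counts.

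Acr encodes proacrosin, the precursor of the serine protease acrosin, a major enzyme of the acrosomal matrix (chr15:89568326-89574585, plus strand, 5 merged exons). It was at 153.5, 115, 45.8, 103 and 35.05 CPM in the wild type mice (replicates 1 to 5) and at 126 to 224 CPM with a median of 171 in Rfx2-/- mice. Wild type replicates 3 and 5 were far below all other mice, and 3 Rfx2-/- mice were above every wild type mouse. The log2 fold change was 0.93 (SE 0.35, n = 5 and 6, edgeR adjusted p = 0.0796).

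Acrbp, the acrosin binding protein that packs proacrosin into the growing granule (chr6:125049689-125063267, plus strand, 10 merged exons), followed the same order of mice. Its levels were 233, 176, 65.9, 165 and 50.3 CPM in the wild type mice (replicates 1 to 5) and 197 to 344 CPM, median 252, in Rfx2-/- mice. Again wild type replicates 3 and 5 lay apart from the rest and 3 Rfx2-/- mice were above all wild type mice (log2 fold change 0.92, SE 0.37, adjusted p = 0.0880 by edgeR). The ratio of Acr to Acrbp within a mouse was 0.666 ± 0.0315 (SD, n = 5) in wild type and 0.658 ± 0.0187 (n = 6) in Rfx2-/- mice. The ratio of this enzyme precursor to its partner lay between 0.622 and 0.697 in all 11 mice.

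Zpbp and Zpbp2 encode the zona pellucida binding proteins, paralogs of the acrosomal matrix that are needed for a compact acrosome and a normal sperm head. Zpbp (chr11:11279626-11462408, minus strand) was at 205, 163, 74.1, 161 and 59.6 CPM in the wild type mice (replicates 1 to 5) and at 175 to 299 CPM, median 208.5, in Rfx2-/- mice (log2 fold change 0.74, SE 0.31, edgeR adjusted p = 0.0960). Zpbp2 (chr11:98551097-98558665, plus strand) was at 284, 233, 86.5, 227 and 61.7 CPM in the wild type mice (replicates 1 to 5) and at 278 to 412 CPM with a median of 339 in Rfx2-/- mice. For Zpbp2, 5 of 6 Rfx2-/- mice were above every wild type mouse and the lowest, replicate 9, was just under wild type replicate 1. Its log2 fold change was 0.94 (SE 0.36, edgeR adjusted p = 0.0800). The ratio of Zpbp to Zpbp2 was 0.790 ± 0.117 in wild type and 0.643 ± 0.0450 in Rfx2-/- mice, with overlapping ranges of 0.699 to 0.966 and 0.599 to 0.726.

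Acrv1, also known as SP-10, is a protein of the acrosomal matrix whose gene is switched on in round spermatids (chr9:36693220-36698843, plus strand). Its levels were 61.9, 20.3, 1.335, 2.49 and 0.220 CPM in the wild type mice (replicates 1 to 5) and ran from 5.29 to 112 CPM, median 27.4, in Rfx2-/- mice. Wild type replicate 1 was close to Rfx2-/- replicate 6 (59.4 CPM) and below Rfx2-/- replicate 7, and wild type replicates 3 to 5 were below all Rfx2-/- mice. The log2 fold change of 1.20 had an SE of 1.215 (edgeR adjusted p = 0.457).

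Spaca3, a lysozyme-like protein of the acrosome (chr11:80858365-80867814, plus strand), gave a similar picture at a lower level. It was at 49.4, 12.5, 0.738, 1.26 and 0.157 CPM in the wild type mice (replicates 1 to 5) and at 3.20 to 79.6 CPM, median 18.4, in Rfx2-/- mice (log2 fold change 1.11, SE 1.27, edgeR adjusted p = 0.510). Spaca7, a protein of the acrosomal lumen (chr8:12573029-12600744, plus strand), was the lowest of the 10 in CPM. It was at 23.5, 6.46, 0.540, 0.806 and 0 CPM in wild type replicates 1 to 5, the last on 0 reads, and at 0.578 to 23.7 CPM, median 4.89, in Rfx2-/- mice (log2 fold change 0.27, SE 1.31, edgeR adjusted p = 0.886). The highest wild type mouse and the highest Rfx2-/- mouse were nearly level for Spaca7, while for Spaca3 and Acrv1 the highest Rfx2-/- mouse was well above every wild type mouse.

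Spaca1 and Izumo1 encode membrane proteins. SPACA1 lies in the inner acrosomal membrane and is needed for the acrosome to attach and flatten over the nucleus, and IZUMO1 is the sperm protein that binds JUNO on the egg. Spaca1 (chr4:34024874-34050191, minus strand) was at 63.1, 23.95, 4.88, 6.52 and 4.12 CPM in the wild type mice (replicates 1 to 5) and at 9.48 to 108 CPM, median 31.1, in Rfx2-/- mice (log2 fold change 1.02, SE 0.86, edgeR adjusted p = 0.367). Izumo1 (chr7:45621811-45628823, plus strand) was at 27.2, 7.16, 1.39, 1.61 and 0.723 CPM in the wild type mice (replicates 1 to 5) and at 2.27 to 40.3 CPM, median 10.9, in Rfx2-/- mice (log2 fold change 0.97, SE 1.01, edgeR adjusted p = 0.466). In both genes, wild type replicates 3, 4 and 5 were below all 6 Rfx2-/- mice, and wild type replicate 1 was second only to Rfx2-/- replicate 7.

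Dpy19l2 encodes a protein of the inner nuclear membrane, related to C-mannosyltransferases, that anchors the acrosome to the nucleus. Its loss gives round-headed sperm without an acrosome in mice and men. The gene (chr9:24557047-24696293, minus strand) has 22 merged exons. It was at 230.2, 185, 81.7, 195 and 66.3 CPM in the wild type mice (replicates 1 to 5) and at 106 to 169 CPM, median 126, in Rfx2-/- mice. Here 0 of 6 Rfx2-/- mice were above all wild type mice, wild type replicates 1, 2 and 4 were above all Rfx2-/- mice, and wild type replicates 3 and 5 were below them. The log2 fold change was -0.195 with an SE of 0.30 (edgeR adjusted p = 0.630).

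Per kilobase of merged exon, Zpbp2 had the highest level of the 10 (109 ± 60.0 CPM per kb in wild type, SD, n = 5, and 209 ± 34.4 in Rfx2-/- mice, n = 6) and Izumo1 the lowest in wild type (5.10 ± 7.52). In wild type mice Acr (60.1 ± 32.9), Acrbp (53.45 ± 30.0), Dpy19l2 (44.0 ± 21.2) and Zpbp (31.2 ± 14.7) came next and lay within each other's SD as neighbours. In Rfx2-/- mice Dpy19l2 (38.5 ± 7.26) came after Zpbp (52.1 ± 11.4) in that order, and Spaca7 (9.53 ± 11.2) and Izumo1 (9.99 ± 9.71) were level with each other at the bottom. Exons of another gene cover 37.8% of the merged exon length of Acrbp (Gm44597, with a further 3.49% under 4930557K07Rik), 16.8% of Spaca7 (D630011A20Rik) and 5.25% of Zpbp (Spata48) in GENCODE M21. Reads on exons of 2 genes had been left out of the counts, which were made over protein coding models, and of these overlapping genes only Spata48 is protein coding.

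The 10 genes fell into 2 sets by their spread between mice of a genotype, a division made after the values were seen and given without a test. In Acr, Acrbp, Zpbp, Zpbp2 and Dpy19l2 the highest wild type mouse was 3.44 to 4.63 times the lowest, and the highest Rfx2-/- mouse 1.48 to 1.78 times the lowest. In Acrv1, Spaca1, Spaca3 and Izumo1 these ratios were 15.3 to 314 in wild type and 11.4 to 24.9 in Rfx2-/- mice, and for Spaca7 the ratio was 41.0 in Rfx2-/- mice and not defined in wild type because of the count of 0. The mice nevertheless kept nearly the same order in all genes. Wild type replicate 1 was the highest wild type mouse, replicate 3 the fourth and replicate 5 the lowest in 10 of 10 genes. Among Rfx2-/- mice, replicates 7, 6, 10 and 11 were the first to the fourth in 10 of 10 genes, with replicates 8 and 9 below them. The same mice stood out in the marker scores: the round spermatid score was highest in wild type replicate 1 (5.16) and Rfx2-/- replicate 7 (5.54) and lowest in wild type replicate 5 (-0.59). Wild type replicate 4 separated the sets, with a pachytene score of 9.17 beside a round spermatid score of 1.34. In the genes of small spread it was close to replicate 2, at 103 against 115 CPM for Acr and 195 against 185 CPM for Dpy19l2, but it was at 2.49 against 20.3 CPM for Acrv1 and at 1.26 against 12.5 CPM for Spaca3. Rfx2-/- replicates 8 and 9 were similar, with pachytene scores of 9.21 and 9.13 beside round spermatid scores of 1.83 and 1.80. They were at 138 and 126 CPM for Acr, against 150 in Rfx2-/- replicate 11. For Acrv1 they were at 5.55 and 5.29 CPM, against 18.0 in replicate 11. The part of cell composition in these differences was not tested beyond the models described next.

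**Figure D2:**
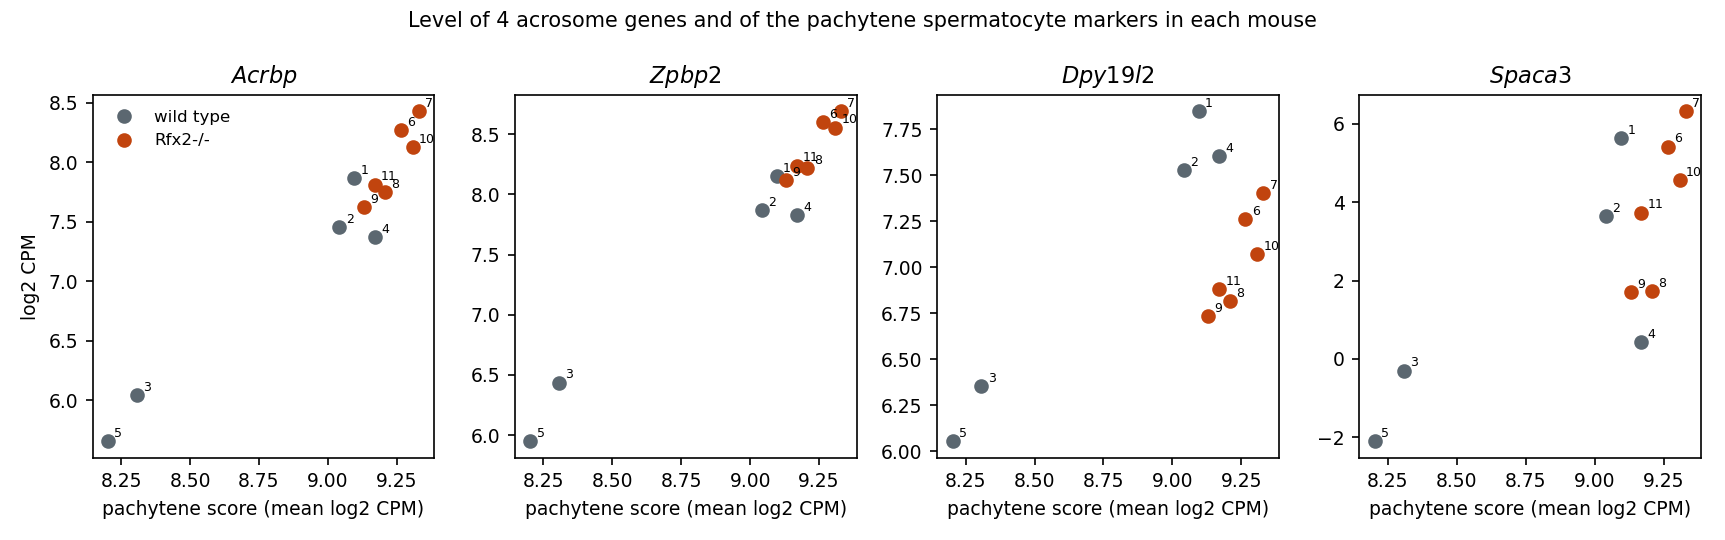
Log2 CPM of Acrbp, Zpbp2, Dpy19l2 and Spaca3 in each mouse against the mean log2 CPM of the pachytene spermatocyte markers in the same mouse, with the replicate number beside each point. Wild type replicates 3 and 5 have the lowest scores (8.31 and 8.20), and among the other 9 mice the Rfx2-/- mice lie below the wild type mice for Dpy19l2 alone of the 4 genes.

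Dpy19l2 kept another proportion to the other acrosome genes in each genotype. Its CPM divided by the summed CPM of Acr, Acrbp, Zpbp and Zpbp2, the other genes of small spread, was 0.263, 0.269, 0.300, 0.297 and 0.321 in wild type replicates 1 to 5. In Rfx2-/- replicates 6 to 11 it was 0.133, 0.132, 0.135, 0.137, 0.125 and 0.136. The genotypes did not overlap, and each was narrow: 0.290 ± 0.0239 (SD, n = 5) against 0.133 ± 0.00410 (n = 6), a ratio of 0.459. Without a covariate most of this difference lay in the denominator, with log2 fold changes of 0.74 to 0.94 for the 4 genes and -0.195 for Dpy19l2. With the pachytene score as covariate, described next, they were 0.07 to 0.17 for the 4 genes and -0.88 for Dpy19l2. Which side of the ratio differed more thus depended on the model. How many other genes have such a separated ratio was not computed. Against each of the 4 genes alone the genotypes did not overlap either, and the mean ratio in Rfx2-/- mice was 0.430 (Zpbp2) to 0.528 (Zpbp) times that in wild type mice. Wild type replicates 3 and 5, which were low in every acrosome gene, were not low in this ratio. The ratio was chosen after the values had been seen and carries no test.

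**Figure D3:**
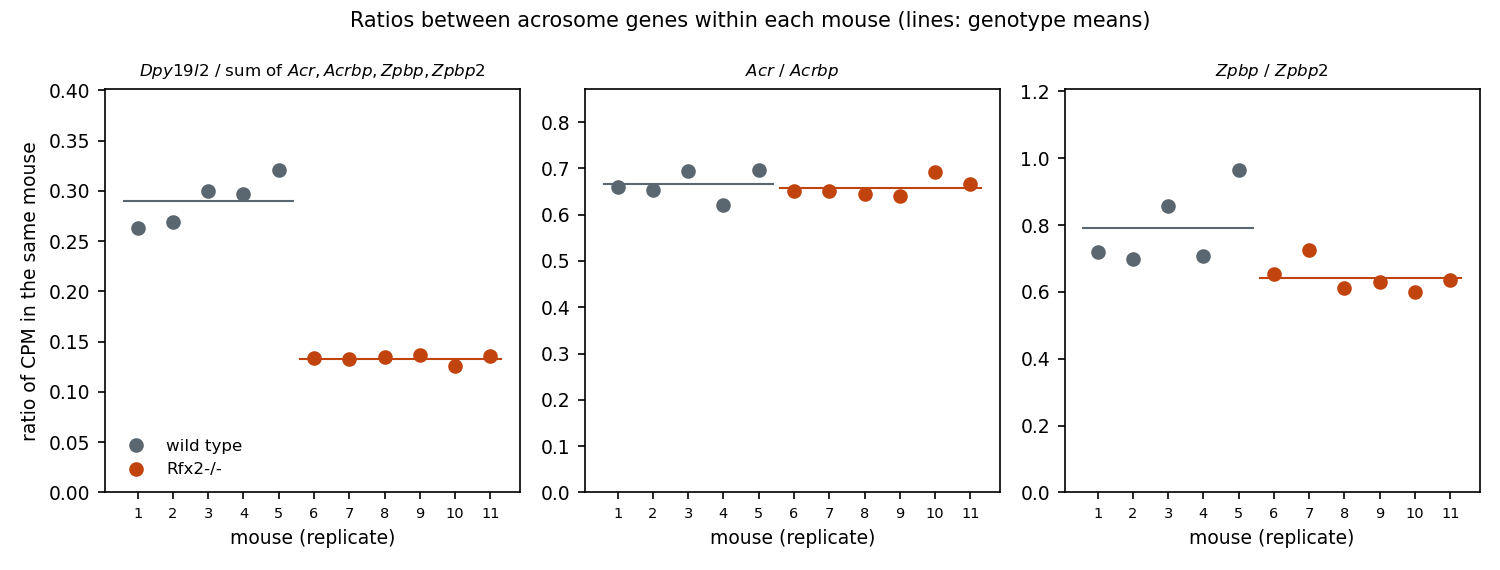
Ratio of CPM values within each mouse on linear axes from 0, for Dpy19l2 over the sum of 4 other acrosome genes, Acr over Acrbp and Zpbp over Zpbp2, with lines at the genotype means. The Dpy19l2 ratio lies between 0.263 and 0.321 in wild type and between 0.125 and 0.137 in Rfx2-/- mice, while the other 2 ratios overlap between genotypes.

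When the pachytene score of each mouse was added to the model as a covariate, Dpy19l2 was lower in Rfx2-/- mice, with a log2 fold change of -0.88 (SE 0.11, edgeR adjusted p = 0.000506). It was the only one of the 10 genes called under that model, in which 3.50% of all genes tested were lower and 0.597% higher. The call held in 11 of 11 fits with a mouse left out, with log2 fold changes from -0.999 to -0.77 and adjusted p from 0.000366 to 0.00322 (edgeR). Under the same covariate the log2 fold changes of Acr, Acrbp, Zpbp and Zpbp2 were 0.17, 0.13, 0.07 and 0.16 (edgeR adjusted p of 0.497 to 0.864). Those of Acrv1, Spaca1, Spaca3, Spaca7 and Izumo1 turned negative, from -2.08 to -0.39, with none called. With wild type replicates 3 and 5 left out in place of the covariate, an alternative added after the data had been seen, Dpy19l2 was at 185 to 230.2 CPM in the 3 other wild type mice and at 106 to 169 CPM in Rfx2-/- mice. These 2 mice are the wild type mice that lay below all Rfx2-/- mice, so leaving them out fixes the separation, and the log2 fold change of -0.61 (SE 0.15, edgeR adjusted p = 0.0311) is a description only. The pachytene score itself differed between the genotypes, as given above, so the covariate and the genotype share part of their information.

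With the mean of the round and late spermatid markers as the covariate, 4.71% of all genes tested were lower and 2.74% higher, and Spaca3 was the only one of the 10 genes called. It was higher in Rfx2-/- mice by 0.89 on the log2 scale (SE 0.18, edgeR adjusted p = 0.00664), and it passed in 4 of 11 fits with a mouse left out (adjusted p from 0.000714 to 0.0495). Acrv1 was at 0.85 (adjusted p = 0.0120 by edgeR), with an SE of 0.20 in place of 1.215. Acr was at 0.72 (0.0203) and Dpy19l2 at -0.39 (0.147). The number of the 10 genes called higher under this covariate ran from 0 to 6 as each mouse was left out, and was 6 without wild type replicate 4. The share of all genes called in these fits is not given, so the 6 cannot be set beside the 2.74% of the fit with every mouse. Of the 6, Acr, Acrbp, Zpbp and Zpbp2 had a smaller SE without that mouse. The SE of Acrv1 was 0.203 against 0.196 with every mouse. Its unadjusted p rose while its adjusted p fell, so the adjustment over all genes was weaker in that fit.

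**Figure D4:**
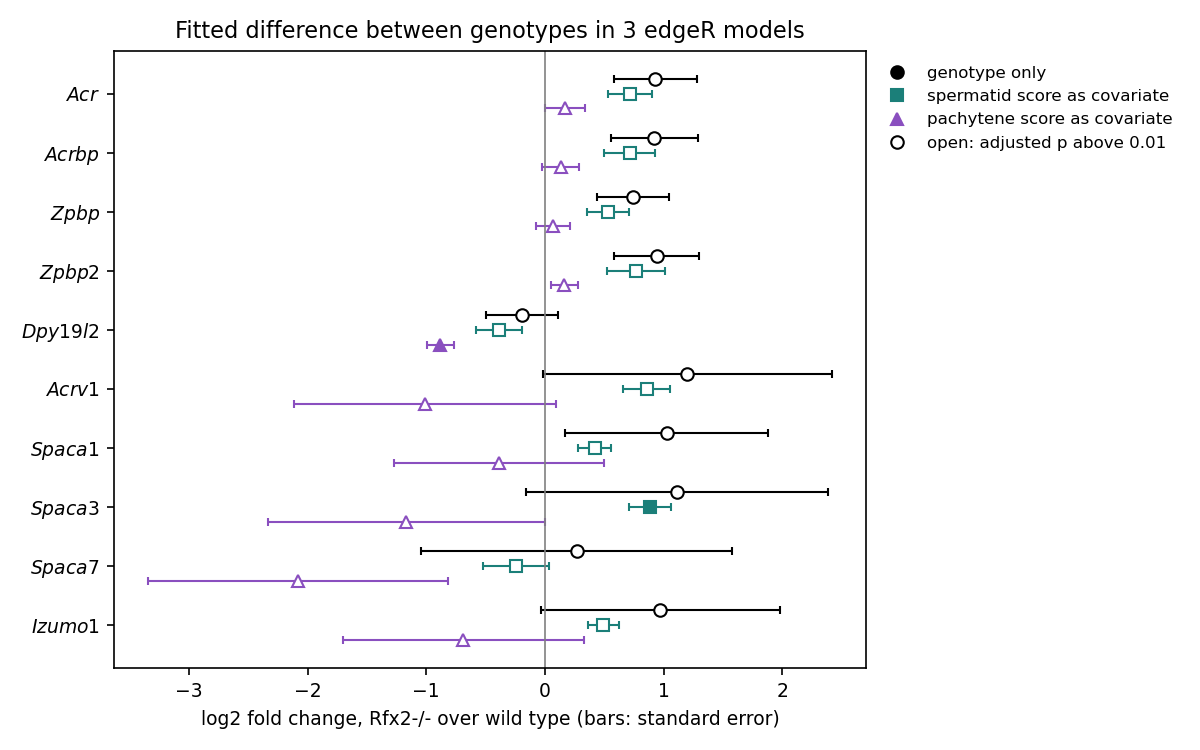
Fitted log2 fold change of each acrosome gene, Rfx2-/- over wild type, with its standard error, in the edgeR model with genotype alone and with each germ cell score as a covariate; filled symbols have an adjusted p of at most 0.01. Dpy19l2 with the pachytene score (-0.88) and Spaca3 with the spermatid score (0.89) are the filled symbols, and the error bars of Acrv1, Spaca1, Spaca3, Spaca7 and Izumo1 shrink with the spermatid score.

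A further 75 genes of the acrosome were placed in 5 lists by the role of their products, and 69 were tested, of which 0 were called in edgeR at an adjusted p of at most 0.01. At an unadjusted p under 0.05, 6 were lower and 19 higher, against 23.7% and 18.1% of all genes. DESeq2 called 6 of the 69 and voom 1, against 12.9% and 6.66% of all genes. Among 14 other genes for acrosomal contents, all 14 had a log2 fold change above 0, with a median of 0.88 beside -0.05 for all genes. That median was -0.91 with the pachytene score as covariate and 0.54 with the spermatid score. The smallest adjusted p of this list were those of Spesp1, an equatorial segment protein, at 174 ± 84.3 against 339 ± 65.6 CPM (log2 fold change 0.965, edgeR adjusted p = 0.0565), and of Crisp2, at 736 ± 350.7 against 1183 ± 211 CPM (0.685, adjusted p = 0.117).

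Acrosome biogenesis and Golgi trafficking had 20 genes tested with a median of 0.33, and was the list with values past an adjusted p of 0.05, 1 lower and 3 higher, where 8.78% of all genes tested were lower and 6.15% higher. Hook1, a microtubule linker of the manchette, was at 178 ± 31.6 CPM in wild type and 245 ± 23.7 CPM in Rfx2-/- mice (log2 fold change 0.46, edgeR adjusted p = 0.0296), and its groups did not overlap. Golga3, a golgin, was at 208 to 332 CPM against 340.2 to 393 CPM (0.45, adjusted p = 0.0335 by edgeR), and Csnk2a2, a catalytic subunit of casein kinase 2, at 119.5 ± 27.1 against 166.5 ± 10.9 CPM (0.48, adjusted p = 0.0398 by edgeR). Rab27b, a Rab GTPase of secretory vesicles, was the lower one, at 0.697 ± 0.126 against 0.340 ± 0.1135 CPM (-1.03, edgeR adjusted p = 0.0251). That level is only a few times the CPM of 3 counts.

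The acroplaxome, perinuclear theca and nuclear envelope list had 12 of 15 genes tested and a median of 0.63. That median was -0.74 with the pachytene score as covariate and 0.23 with the spermatid score. Ccdc62 (log2 fold change 0.65, edgeR adjusted p = 0.0838) and Sun3, a nuclear envelope protein of the LINC complex (0.84, adjusted p = 0.0939), came nearest to the threshold. For sperm-egg fusion, 13 of 14 genes were tested with a median of 0.73, which was -0.65 with the pachytene score and 0.50 with the spermatid score. Without a covariate the smallest adjusted p were those of Adam2 and Adam3, sperm surface proteins of the ADAM family, at 0.65 and 0.94 (edgeR adjusted p = 0.0811 and 0.0829). Tmem190, a membrane protein named after its values were seen, went the other way: it was at 4.83 ± 7.27 against 0.774 ± 1.31 CPM, with a log2 fold change of -2.62 (adjusted p = 0.159 by edgeR) that became -3.54 (adjusted p = 0.000163 by edgeR) with the spermatid score as covariate. In that model Lyzl6 (0.78), Sun5 (1.09), Tmem95 (1.48) and 4930451I11Rik (1.18) were higher, and Sun5 is itself one of the markers in the score.

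For acrosomal exocytosis, 10 of 12 genes were tested and 7 were below 0, with a median of -0.09 that was close to that of all genes. Snap23, a SNARE protein of membrane fusion, was at 30.7 ± 2.43 against 35.7 ± 2.32 CPM (0.22, edgeR adjusted p = 0.0577). Nsf, the ATPase that takes SNARE complexes apart, was at 41.4 ± 9.21 against 32.4 ± 1.49 CPM (-0.35, edgeR adjusted p = 0.0694).

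**Figure D5:**
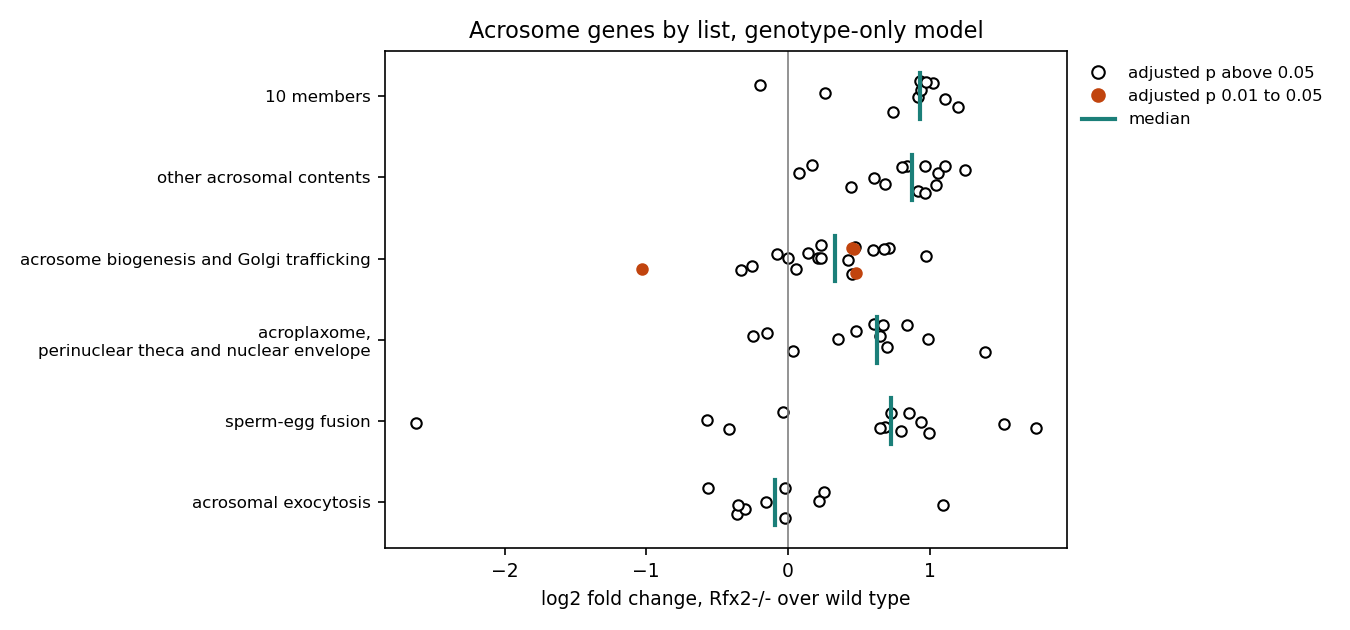
Log2 fold change, Rfx2-/- over wild type, of each tested gene in the 10 acrosome genes and the 5 further lists. Values are from the edgeR model with genotype alone, with a bar at the median of each list. The medians run from -0.09 for exocytosis to 0.935 for the 10 genes, and the 4 filled points, all in the biogenesis and Golgi list, have an adjusted p between 0.01 and 0.05.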

How the data were processed

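The authors deposited raw counts per gene, 1 column per mouse. Per the labels and the study's methods, TruSeq libraries of total RNA were read as single reads (46 or 50 nt), base-called with CASAVA 1.8.2, mapped to GRCm38 (STAR 2.4 in the processing notes, Bowtie in another account) and counted over merged exons with featureCounts 1.4.6. Reads with several positions, or on exons of different genes, had been left out, and strand is not stated. The counts were fitted here with edgeR 4.0.16 in R 4.3.3 (filterByExpr, TMM, quasi-likelihood test), with Benjamini-Hochberg adjustment over 15745 genes, without covariates, and with calls at an adjusted p of at most 0.01. DESeq2 1.42.0, limma 3.58.1 and other scalings, filters and covariates were alternatives. Log2 CPM used a prior count of 2. Positions are from GENCODE M21. The rule for named genes took all 10 members, Rfx2, and of each list its called genes or, with none, the 2 of smallest adjusted p. Golga3 and Csnk2a2, at an adjusted p under 0.05, were named beyond this rule. So were Tmem190, Lyzl6, Sun5, Tmem95 and 4930451I11Rik, which were called with the spermatid score. The members and lists were chosen with earlier results of these data known. Code was tested on simulated data. The study used littermates of the same age where it could, but which mice were littermates is not given. The p-values set the genotype difference against the spread between these mice and treat the mice as independent.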

Additional observations from a re-analysis of the deposited data

Results flagged for a closer look

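Within a genotype, 3 of 22 groups of CPM values held a mouse that stood apart by Dixon's criterion. Chance meets it in about 1 of 20 groups of normally distributed values, a rate that does not hold for skewed CPM. All 3 were wild type replicate 1, at 49.4 CPM for Spaca3 (the other wild type mice at 0.157 to 12.5 CPM), 23.5 CPM for Spaca7 (0 to 6.46 CPM) and 27.2 CPM for Izumo1 (0.723 to 7.16 CPM). These 3 genes rank the mice alike, so they are not independent. On the log2 scale the gap was smaller beside the range: Spaca3 was at 5.63 in wild type replicate 1, 3.65 in replicate 2 and -2.11 in replicate 5. In the same mouse the late spermatid score was 5.70, beside -1.65 to 3.10 in the remaining wild type mice, and the part of that score in these values was not tested.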

How the results depend on the processing

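No paired analysis was possible because the genotypes share no replicate numbers. Of 100 results of the 10 genes under alternatives that kept every mouse or left out wild type replicates 3 and 5 together, 91 kept direction and call, 7 changed sign and 2 became called. With the pachytene score the sign changed for Acrv1 (-1.01), Spaca1 (-0.39), Spaca3 (-1.17), Spaca7 (-2.08) and Izumo1 (-0.69), and Dpy19l2 became called. With the spermatid score Spaca7 was at -0.25, and Spaca3 became called, so that 1 gene was called higher. Without wild type replicates 3 and 5 together Spaca7 was at -0.45. The causes of these changes were not tested. With 1 mouse left out and no covariate, Spaca7 ran from -0.55 (without Rfx2-/- replicate 7) to 1.95 (without wild type replicate 1), Dpy19l2 from -0.37 to 0.0055 (positive without wild type replicate 1), and the other 8 genes kept their sign, each highest without wild type replicate 1: Acr 1.21, Acrbp 1.19, Zpbp 0.95, Zpbp2 1.17, Acrv1 2.705, Spaca1 2.08, Spaca3 2.92 and Izumo1 2.46. With the pachytene score and 1 mouse left out, the ranges were -0.068 to 0.37 for Acr, -0.080 to 0.32 for Acrbp, -0.096 to 0.20 for Zpbp, -0.0052 to 0.29 for Zpbp2, -1.90 to 0.36 for Acrv1, -1.15 to 0.76 for Spaca1, -2.07 to 0.55 for Spaca3, -3.94 to -0.52 for Spaca7, -1.51 to 0.92 for Izumo1 and -0.999 to -0.77 for Dpy19l2. The negative values of Acr, Acrbp, Zpbp and Zpbp2 came without wild type replicate 4. With the spermatid score Spaca7 ran from -0.48 to -0.12. With a mouse left out and no covariate, 0 of the 10 genes were called. With the pachytene score only Dpy19l2 was called, lower in 11 of 11 fits. With the spermatid score 0 were called lower and 0 to 6 higher, in fits where the share of all genes called is not given.

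Over all genes, 305 were lower and 115 higher. DESeq2 called 904 and 1128, voom 682 and 367, the spermatid score 741 and 432, the pachytene score 551 lower (94 higher), and an adjusted p of at most 0.05 gave 1382 and 968. Leaving out 1 mouse gave 184 to 393 lower and 45 to 192 higher, ranges that do not cover the fits with the spermatid score. Of the further lists, DESeq2 called 1 gene of acrosomal contents, 4 of biogenesis and 1 of exocytosis, and voom 1 of biogenesis. The spermatid score called 1 of contents, 1 of the acroplaxome list and 3 of fusion, and an adjusted p of 0.05 called 4 of biogenesis. Depth limits Spaca7 in wild type replicate 5, where a count of 0 allows up to 3 counts by counting error alone.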
